A study of Mus musculus with 4 samples.

Results

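Macrophages with little RNA of the major histocompatibility complex class II (MHC class II) made up 78 of the 10450 cells kept from regenerating mouse muscle (0.746%). They are called class II-low macrophages here. They were chosen on raw unique molecular identifiers (UMIs, which count captured RNA molecules) among cells with at least 5000 UMIs and 1000 genes. Per 10000 UMIs of the cell, a class II-low macrophage held at least 20 UMIs of C1qa, C1qb, C1qc, Tyrobp, Fcer1g, Ctss and Csf1r together and fewer than 20 of Cd74, H2-Aa, H2-Ab1 and H2-Eb1 together. It also held no UMI of Myog, the transcription factor of committed myoblasts. The same rule with 20 or more class II UMIs gave 129 macrophages, called class II-high, which serve as the comparison. Because the 12 genes of the rule chose the cells, their values are given as a description and without a test.

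Macrophages enter muscle after injury, clear dead fibres and secrete factors that act on muscle stem cells, and they move over time from an inflammatory to a repair state. MHC class II molecules present peptides from taken-up protein to CD4 T cells. The invariant chain Cd74 is a chaperone that keeps the peptide groove blocked, H2-DM helps to exchange its remnant for a peptide, and the transactivator Ciita switches on their genes. Macrophages and dendritic cells can carry class II, and the amount differs between macrophage states and origins.

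The cells came from tibialis anterior muscles of 12-week-old mice, 6 days after cardiotoxin was injected to make the muscle regenerate. Control mice were Pax7Cre, and the other mice carried Pax7Cre with a floxed miR-501 gene (miR-501KO), so all groups had the Pax7-driven Cre. Each library pooled 3 mice, and the 4 libraries were made in 2 runs, each with 1 library per genotype. The sort was for alpha7 integrin-positive cells without CD45, CD31 or Sca1, a gate for myogenic progenitors (MPs), and the macrophages are therefore cells found behind a gate meant to remove them. Pax7, which drives the Cre, was at 0.148, 0, 0.283 and 0.309 UMIs per 10000 in the class II-low macrophages of Pax7Cre run 1, Pax7Cre run 2, miR-501KO run 1 and miR-501KO run 2, in which order all values by library are given. Clcn5, the host gene of miR-501, was at 0.561, 0.310, 0.741 and 0.683. The level of miR-501 and the deletion in these cells were not measured.

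The libraries held 3439, 1829, 2833 and 2349 cells, with median depths of 25254 to 34579 UMIs. In miR-501KO run 1, 799 cells fell in clusters drawn almost wholly from that library. Macrophage RNA was also present in its cells below the macrophage threshold. The summed level of C1qa, C1qb, Tyrobp, Fcer1g, Csf1r and Lyz2 in such cells was 3.29 per 10000 UMIs there and 0.210 to 0.360 in the other 3 libraries. The median such cell of miR-501KO run 1 was at 0.266, so much of this RNA lay in part of the cells. These values include the cells of the clusters drawn almost wholly from that library. No class II-low macrophage lay in those clusters. Of the kept cells, 20 shared a barcode with a cell of another library, and 0 of these were class II-low macrophages. Doublet calling with Scrublet marked 20 cells (0.191%), 0 of them class II-low macrophages, too few for the caller to have worked, so no doublets were removed. The highest 5% of Scrublet scores held 11 of the 78 class II-low macrophages, and 24, 9, 23 and 11 by library lay below them.

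The 4 libraries contributed 26, 9, 25 and 18 class II-low macrophages, and the run 2 Pax7Cre library is thus the least precise. Their depth ran from 5100 to 110009 UMIs with a median of 19724.5, and together they held 1945907 UMIs. The macrophage score of the rule had a median of 207 per 10000 UMIs, from 35.3 to 460, and 65 of the 78 cells were at 100 or more. Only 2 were under 40, and 3 cells without Myog lay just outside the threshold, at 10 to 20. The class II score had a median of 0.708 and was 0 in 28 cells. It was under 5 in 61 cells and at 10 or more, up to 15.4, in 8 cells, while the lowest class II-high macrophage was at 21.6, 11 of those were under 40 and 97 were at 100 or more. The class was cut from a score and is thus a range of class II RNA. All 78 cells and all 129 class II-high macrophages fell in the same cluster out of 20, and whether they would split under a finer clustering was not tested.

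**Figure D1:**
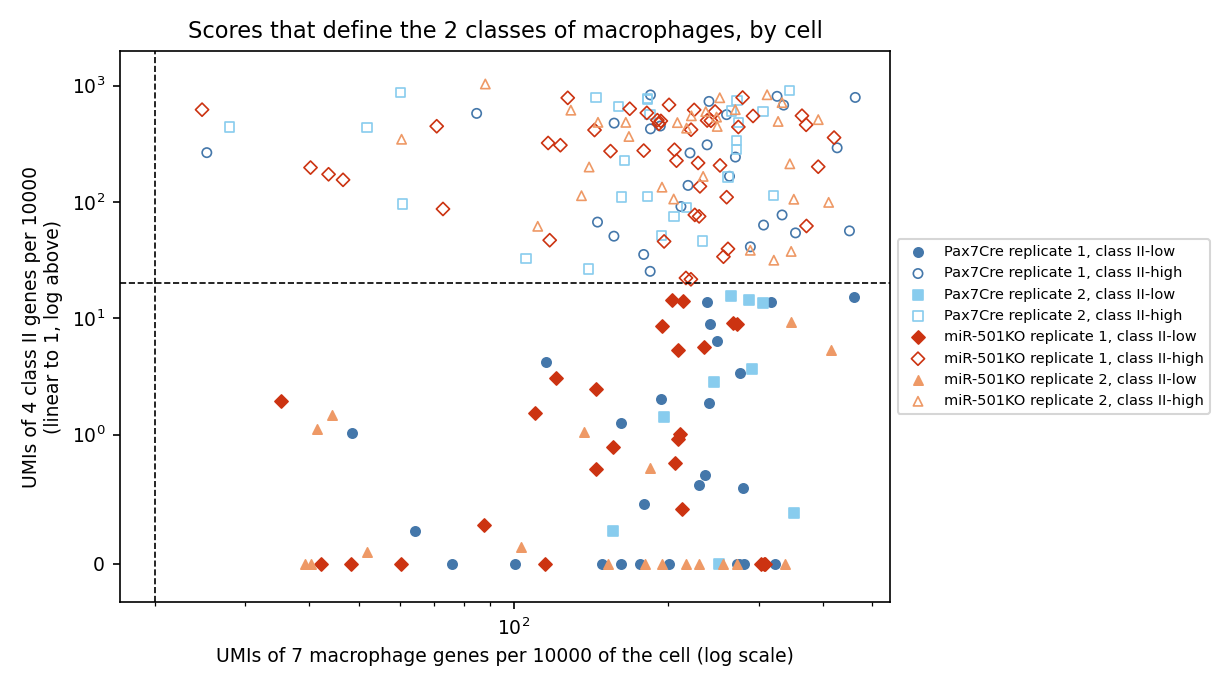
Macrophage score (x axis, log scale) and class II score (y axis, linear to 1 and log above) of each macrophage without Myog UMIs, both in UMIs per 10000 of the cell, with the library by colour and symbol and the thresholds of 20 as dashed lines. Filled points, the 78 class II-low macrophages, reach from 0 to 15.4 on the class II score, and open points, the 129 class II-high macrophages, begin at 21.6.

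The cells carried macrophage genes that the rule did not use. Lyz2, the lysozyme of myeloid cells, was found in 76 of the 78 cells at 158, 142, 163 and 144 UMIs per 10000. Ms4a7 was found in 76, Laptm5 in 76, the scavenger receptor Cd68 in 74 and Adgre1, which encodes the F4/80 antigen, in 69. None of these 5 genes passed the test between the classes described below, with adjusted p-values of 0.393 to 0.554. Of the 12 macrophage list genes they were taken from, 10 had negative log2 fold changes, class II-low over class II-high. The median of the 12 was -0.35, against 0.01 over all genes, and 0 passed. Ptprc, which encodes CD45, was found in 65 cells, at 2.51, 3.25, 3.27 and 2.24 per 10000. After each cell was thinned to 5000 UMIs, 59.0% of class II-low macrophages, 73.6% of class II-high macrophages and 0.237% of the cells below the macrophage threshold had a Ptprc UMI. Median depths before thinning were 19724.5 and 18093 UMIs in the 2 macrophage classes. Itga7, which encodes alpha7 integrin, went the other way, with a UMI in 6.41% of thinned class II-low macrophages and 43.5% of cells below the threshold.

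Apart from monocyte genes, markers of other blood cells were low or at 0. The 9 monocyte genes summed to 5.75, 10.1, 3.90 and 7.04 per 10000, with a UMI in 65 cells. In class II-high macrophages they summed to 5.09, 5.87, 8.59 and 9.23. F13a1, with levels given below, made up most of each sum in class II-low macrophages and the smaller part in class II-high macrophages. The rest of the list summed lower in class II-low macrophages in each library. S100a9, Camp, Ngp, Ly6g and Retnlg of neutrophils were at 0 in all 4 libraries, as were all 8 genes listed for mast cells or basophils. The whole neutrophil list of 9 genes summed to 0.339, 0.310, 0.392 and 2.28 per 10000, with a UMI in 37 of the 78 cells, and the highest value is that of the library with the single Mmp9-rich cell described below. The 8 genes of B or plasma cells summed to 0.694, 1.55, 1.13 and 0.471 (42 cells), against at least 1.60 in each library of class II-high macrophages. The 10 genes of T or NK cells summed to 0.694, 0.516, 0.719 and 0.666 (26 cells), against 0.121 to 1.99. Flt3, Clec9a, Cd209a and Xcr1, which mark dendritic cells, were also at 0, and the 9 dendritic cell genes summed to 0.310, 0.310, 1.02 and 0.179 per 10000 against 3.40, 3.16, 1.27 and 2.41 in class II-high macrophages. The ranges did not overlap. Cd209a had 205 UMIs in class II-high macrophages and 0 in class II-low macrophages, at least 47.7-fold lower when 3 UMIs over the 4 libraries are taken as the limit of a count of 0. The same bound was 8.85-fold for Flt3, 5.59-fold for Xcr1 and 3.49-fold for Clec9a. Counting intervals and such bounds cover counting error only. Dendritic cells can carry class II, and the rule places cells rich in it among the class II-high macrophages. The differences in dendritic cell genes are therefore a description and not a test of what the class II-low macrophages are.

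Myogenic RNA was present at a low level. The 10 genes of the myogenic progenitor list summed to 4.66, 0.310, 2.96 and 4.63 per 10000, against 21.5 to 22.2 in cells below the macrophage threshold and 1.57 to 2.73 in class II-high macrophages. It came largely with 9 cells at 10 or more, 2, 0, 4 and 3 by library. Their median depth was 44989 UMIs, against 18634 in the other class II-low macrophages, and their median macrophage score was 51.7 against 213. Not all of them were deep, since cells of miR-501KO run 1 with 6016, 5457 and 5100 UMIs were among them. Another 58 barcodes met the macrophage and class II thresholds but held Myog, 49 of them with only 1 or 2 Myog UMIs, and were left out by the rule. Whether these barcodes, or the 9 cells, held 1 cell or 2 was not tested.

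A group of 3 cells differed from the rest by having a C1q sum under 10 per 10000, and all 3 came from miR-501KO run 2. They were picked out after their values were seen. The first held 343 UMIs of the cathepsin Ctsk, 250 of the acid phosphatase Acp5, 130 of the gelatinase Mmp9 and 39 of the proton pump subunit Atp6v0d2, genes best known from osteoclasts, with 1 UMI of Lyz2. This cell alone carried 95.8% of the Ctsk and 98.5% of the Mmp9 of all class II-low macrophages. The next held 61 UMIs of Acp5 and 23 of Atp6v0d2 with no Lyz2. The last held 58 UMIs of the granzyme Gzma and 17 of Nkg7, genes of cytotoxic lymphocytes, and none of C1q, Csf1r or Lyz2. It goes against the macrophage label, and results are therefore also given with the C1q sum required to be at least 10.

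The share of class II-low macrophages was compared between genotypes, on the question whether loss of miR-501 in MPs went with a change in these cells. They were 0.756% of all cells in Pax7Cre run 1 (95% Wilson interval 0.516 to 1.11), 0.492% in Pax7Cre run 2 (0.259 to 0.933), 0.882% in miR-501KO run 1 (0.598 to 1.30) and 0.766% in miR-501KO run 2 (0.485 to 1.21). Both miR-501KO libraries were above both Pax7Cre libraries, but the 4 intervals overlapped and miR-501KO run 2 lay only just above Pax7Cre run 1. The order was lost in 7 of 11 alternatives. Without the highest 5% of Scrublet scores, miR-501KO run 2 was at 0.493%, below Pax7Cre run 2 at 0.518%. The means were 0.624 ± 0.132% and 0.824 ± 0.0581% (SEM, n = 2 libraries), and miR-501KO exceeded Pax7Cre by 0.126 percentage points in run 1 and by 0.274 in run 2. An exact two-sided permutation test gave p = 0.333, the smallest that 2 against 2 libraries allow. Leaving out the clusters of miR-501KO run 1 that came from 1 library raised its share to 1.23%, since it took cells from the denominator only, and requiring C1q lowered the share of miR-501KO run 2 to 0.639%.

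Among macrophages without Myog, class II-low cells were 26 of 53, 9 of 36, 25 of 70 and 18 of 48, or 49.1%, 25.0%, 35.7% and 37.5%. The Pax7Cre libraries were the highest and the lowest of the 4, and the miR-501KO libraries lay between them. The means of 37.0 ± 12.0% and 36.6 ± 0.893% (SEM, n = 2) differed by -0.421 points (exact two-sided permutation test, p = 1), with a run 1 difference of -13.3 and a run 2 difference of 12.5. The direction thus changed with the run. The sort sets how many macrophages of either class enter a library, so these are shares of sorted cells and not of muscle.

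**Figure D2:**
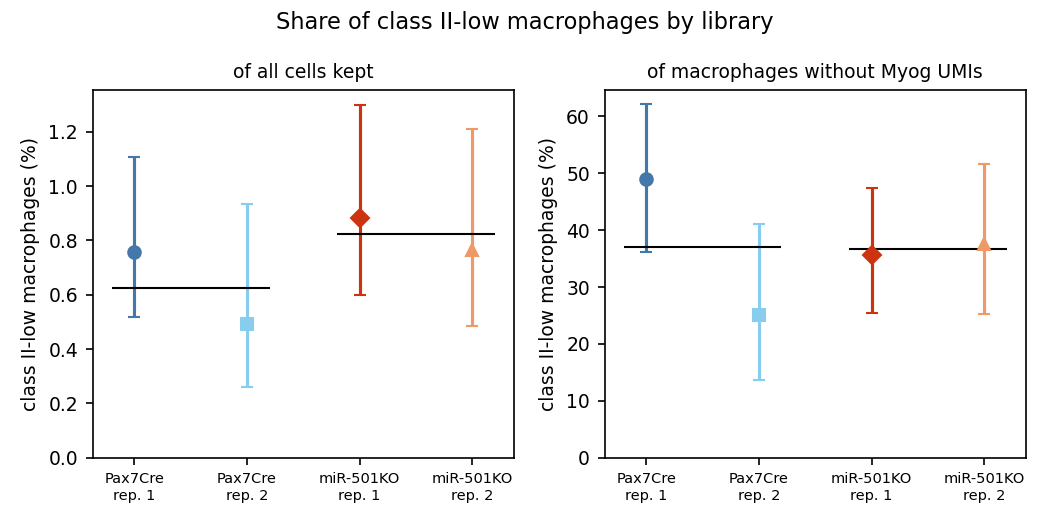
Class II-low macrophages as a percentage of all cells kept (left) and of macrophages without Myog UMIs (right) in each library, with 95% Wilson intervals as bars and genotype means as black lines. In the left panel both miR-501KO libraries lie above both Pax7Cre libraries with overlapping intervals, and in the right panel the Pax7Cre libraries are the highest and the lowest.

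Which genes went with low class II was tested on UMIs summed by library and class, with the library as a block (edgeR quasi-likelihood test, Benjamini-Hochberg adjustment over 6195 genes). Outside the genes of the rule 6184 genes were tested, and class II-low macrophages were higher in 3 (0.0485%) and lower in 15 (0.243%). The class II genes of the rule are not counted, since the rule fixed their direction. The median log2 fold change over all genes was 0.01, and 672 genes had an unadjusted p under 0.05. Some genes below are said not to overlap between the classes. The share of all tested genes for which this held was not counted. Since the classes were cut from class II RNA in the same cells, genes that vary with class II from cell to cell differ between them, and this holds most directly for the class II pathway. Without Pax7Cre run 1 the calls fell to 0 higher and 4 lower, and without Pax7Cre run 2, the library with 9 cells, they rose to 14 higher and 41 lower.

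The rule's own class II genes show the depth of the division. Cd74 was at 1.21, 3.15, 1.39 and 0.634 per 10000 in class II-low macrophages and at 122, 143, 138 and 176 in class II-high macrophages. H2-Aa, H2-Ab1 and H2-Eb1, the chains of the class II molecule, were between 0.0813 and 0.849 in the first and between 54.5 and 84.3 in the second. The macrophage genes of the rule were close in the classes, with C1qa at 39.2, 64.8, 40.2 and 32.4 against 49.3, 40.8, 44.5 and 54.7, and Csf1r, the receptor for the macrophage growth factor CSF1, at 5.47, 10.4, 8.19 and 4.89 against 6.32, 8.56, 8.04 and 6.84.

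Class II genes outside the rule fell with it. Ciita was at 0, 0.155, 0.0436 and 0.0325 per 10000 in class II-low macrophages and at 0.562, 0.726, 1.01 and 1.04 in class II-high macrophages. This was 7 against 235 UMIs, with a log2 fold change of -4.52 ± 0.509 (SE; adjusted p = 0.00402). H2-DMb1 was at 0.413, 0.310, 0.457 and 0.455 against 4.47, 4.24, 4.81 and 5.05 (log2 fold change -3.61 ± 0.194, adjusted p = 1.76e-05). H2-DMa, which encodes the other chain of H2-DM, was at 0.767, 0.825, 1.05 and 0.423 against 4.51, 5.61, 4.01 and 5.46 (-2.83 ± 0.289, adjusted p = 0.00219). The classes did not overlap for any of the 3 genes. These were 3 of the 5 class II list genes tested outside the rule. The costimulatory ligand Cd86 (-1.25, adjusted p = 0.251) and its relative in function Cd40 (-0.70, adjusted p = 0.492) did not pass. Of the genes too sparse to test, H2-Ob had 1 UMI against 37 and H2-Oa 0 against 21, at least 4.89-fold lower.

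Class I genes, which present peptides from inside the cell, lay lower as well but mostly within the spread. All 10 class I list genes tested had negative log2 fold changes, with a median of -0.57 against 0.01 over all genes, and 1 passed. The median log2 ratio within a library was -0.63, 0.04, -0.66 and -0.53, and thus not negative in Pax7Cre run 2. H2-T23, a nonclassical class I gene, was at 1.96, 2.01, 1.44 and 1.07 per 10000 against 3.66, 3.40, 4.20 and 3.01, with no overlap (-1.30 ± 0.202, adjusted p = 0.0271). It passed without Pax7Cre run 2 but not without any 1 of the other 3 libraries (adjusted p = 0.0804 to 0.230), nor with Myog allowed (adjusted p = 0.0620). B2m, the light chain of class I, was at 24.2, 40.5, 30.2 and 21.3 against 33.7, 33.6, 38.8 and 29.4. It was lower in 3 of the 4 libraries and did not pass (adjusted p = 0.444).

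Batf3 was the 1 gene of the dendritic cell list that passed, of 3 tested, and none of the monocyte-derived list fell. Other called genes are described with it. Plbd1, a phospholipase B-like gene, was at 0.103, 0.361, 0.218 and 0.0975 per 10000 against 2.23, 2.39, 2.86 and 2.17 (-3.98 ± 0.314, adjusted p = 0.000247). Batf3, a transcription factor needed by cross-presenting dendritic cells, was at 0.118, 0.155, 0.0436 and 0.0813 against 0.441, 0.409, 0.427 and 0.452 (-2.36 ± 0.343, adjusted p = 0.0198). The C-type lectin Clec4b1 was at 0.177, 0.206, 0.0436 and 0.0488 against 1.26, 0.741, 0.758 and 1.21 (-3.42 ± 0.385, adjusted p = 0.00402). In Plbd1, Batf3 and Clec4b1 every class II-low sum lay below every class II-high sum. Without Pax7Cre run 1, Plbd1 still passed, but Clec4b1 (adjusted p = 0.0582) and Batf3 (adjusted p = 0.205) did not, and Batf3 also missed the threshold without miR-501KO run 1 (adjusted p = 0.0761), without miR-501KO run 2 (adjusted p = 0.0804) and with the C1q sum at 10 or more (adjusted p = 0.0529). Whether a few dendritic cells among the class II-high macrophages account for this was not tested, and 2 further calls rest on very few UMIs: Dnase1l3, a secreted DNase, had 1 UMI against 72 (50.3-fold, exact interval 8.74 to 2014, adjusted p = 0.00609) and the lectin Klrb1b had 3 against 70, all 3 in 1 cell (16.3-fold, 5.35 to 80.9, adjusted p = 0.0251). Klrb1b missed the threshold without Pax7Cre run 1, miR-501KO run 1 or miR-501KO run 2 (adjusted p = 0.0766 to 0.205) and with Myog allowed (adjusted p = 0.0946).

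The other genes that fell served varied functions, and Cd52, Tmem176a and Rogdi among them are named after their values were seen. Cd52, a small surface glycoprotein of leukocytes and the most abundant of them, was at 5.05, 7.996, 6.73 and 4.41 per 10000 against 17.9, 13.3, 15.8 and 14.4 (-1.50 ± 0.216, adjusted p = 0.0198). Tmem176a was at 1.61, 3.20, 2.94 and 1.71 against 5.35, 6.46, 5.98 and 6.44 (-1.55 ± 0.224, adjusted p = 0.0198). Fcgr4, an activating receptor for the Fc part of IgG, was at 0.413, 0.310, 0.479 and 0.374 against 0.957, 0.515, 1.41 and 1.04 (-1.45 ± 0.225, adjusted p = 0.0271). None of these overlapped. The cystine transporter Slc7a11 (-2.74, adjusted p = 0.0284), the lysosomal amidase Naaa (-2.14, adjusted p = 0.0113) and Rogdi (-1.94, adjusted p = 0.0372) also fell. Without Pax7Cre run 1 none of these 6 genes passed (adjusted p = 0.189 to 0.375). Fcgr4, Slc7a11 and Rogdi also missed the threshold without either miR-501KO library (adjusted p = 0.0665 to 0.115), and Cd52 without miR-501KO run 2 (adjusted p = 0.0530). Fcgr4 did so without the library block (adjusted p = 0.0681) and with Myog allowed (adjusted p = 0.135), and Rogdi with DESeq2 (adjusted p = 0.0839) and in 4 other choices of cells.

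The 3 genes that rose had varied functions. Fn1, which encodes the matrix protein fibronectin, was at 2.89, 1.08, 1.57 and 2.10 per 10000 in class II-low macrophages and at 0.380, 0.288, 0.534 and 0.320 in class II-high macrophages (2.15 ± 0.254, adjusted p = 0.00552). Cbr2, a carbonyl reductase found in resident macrophages of several tissues, was at 2.15, 4.18, 1.72 and 1.84 against 0.729, 1.21, 0.726 and 0.829 (1.32 ± 0.198, adjusted p = 0.0239). Ednrb, a receptor for endothelins, was at 0.871, 0.671, 0.436 and 0.504 against 0.182, 0.166, 0.0641 and 0.0565 (2.31 ± 0.286, adjusted p = 0.00679). The classes did not overlap for any of them. All 3 missed the threshold without Pax7Cre run 1, with adjusted p-values of 0.104 for Fn1, 0.247 for Cbr2 and 0.104 for Ednrb at log2 fold changes of 1.94, 1.30 and 2.45. Cbr2 also missed it without miR-501KO run 1 (adjusted p = 0.0665), without the library block (adjusted p = 0.0930) and with class II under 10 set against 40 or more (adjusted p = 0.0797). Ednrb also missed it with at most 10% mitochondrial UMIs (adjusted p = 0.0595).

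**Figure D3:**
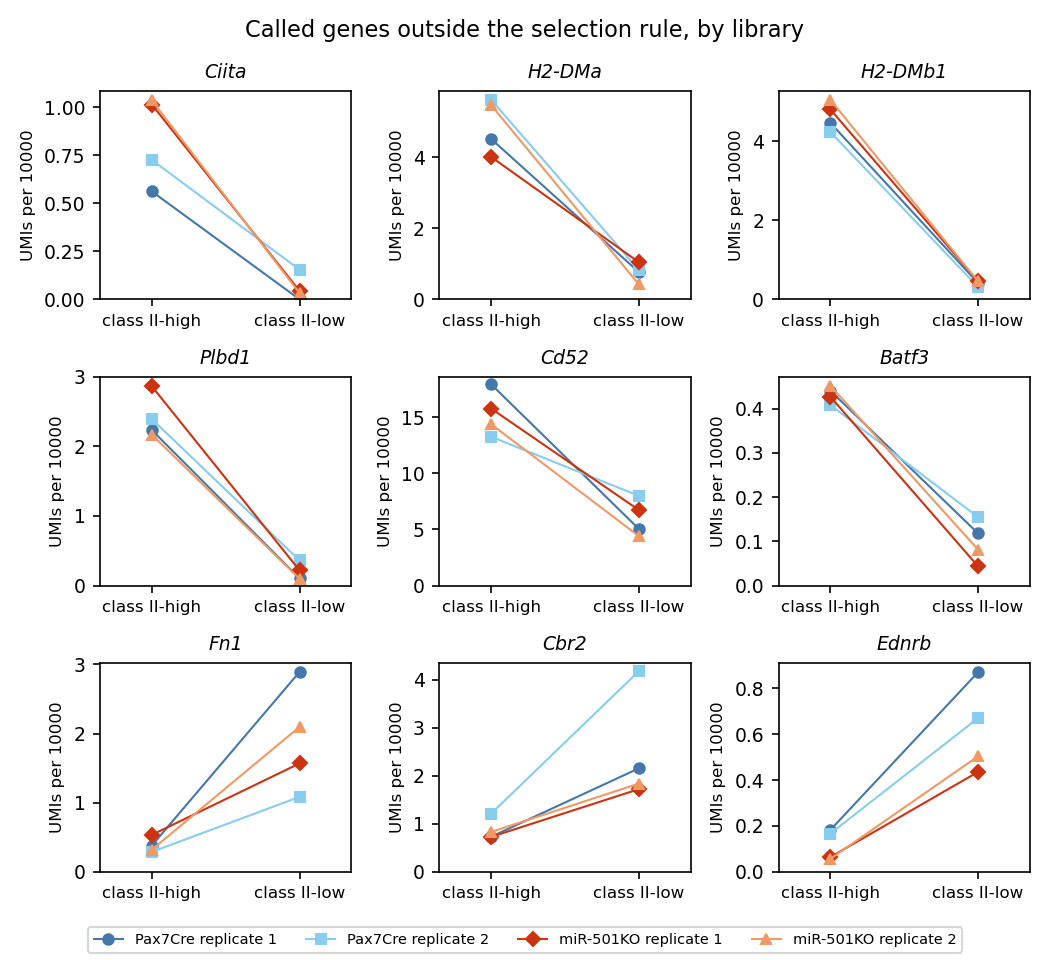
Levels of 9 called genes outside the selection rule, in UMIs per 10000 (y axes from 0, each with its own scale), in class II-high (left) and class II-low (right) macrophages, with a line for each of the 4 libraries. Every class II-low value of Ciita, H2-DMa, H2-DMb1, Plbd1, Cd52 and Batf3 lies below every class II-high value, and the reverse holds for Fn1, Cbr2 and Ednrb.

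Fn1 RNA was more abundant in the cells below the macrophage threshold than in the macrophages, at 3.33 to 3.68 per 10000, whereas Cbr2 was there at 0.00139 to 0.0109. Fn1 rested on few cells. It was found in 10, 3, 10 and 7 class II-low macrophages by library, and the highest cell of each library held 49.0%, 85.7%, 73.6% and 41.9% of its UMIs. With that cell left out of each library the levels were 1.55, 0.178, 0.436 and 1.48, which is below the class II-high level of the same library in Pax7Cre run 2 and miR-501KO run 1, so the non-overlap of Fn1 rested on 1 cell in each of these libraries. All 13 Ednrb UMIs of Pax7Cre run 2 came from 1 cell, and without the highest cell the Ednrb levels were 0.450, 0, 0.330 and 0.277. The Cbr2 levels without it were 1.31, 2.17, 1.34 and 1.09, each above the class II-high level of its own library. Without the macrophages at 10 or more of the myogenic list, the Fn1 change was 2.34 (adjusted p = 0.000859), the Cbr2 change 1.49 (adjusted p = 0.00388) and the Ednrb change 1.85 (adjusted p = 0.0340). With the C1q sum required to be at least 10, all 3 kept passing, at 2.17, 1.31 and 2.29.

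The lists of resident and monocyte-derived macrophage genes both had positive medians. Over all tested genes 51.4% were positive. Of 12 resident genes tested 8 were positive and 1, Cbr2, passed, with a median of 0.47. Folr2, a folate receptor of resident macrophages, was at 4.54, 6.45, 2.64 and 3.59 per 10000 against 1.84, 2.21, 1.78 and 2.13, without overlap (0.92, adjusted p = 0.142). Mrc1, the mannose receptor CD206, was at 4.84, 11.7, 6.23 and 5.87 against 2.90, 6.30, 4.79 and 5.43, which overlapped (0.41, adjusted p = 0.457). The lectin Mgl2, in the same list, pointed downward at -3.25 (adjusted p = 0.0643). Lyve1 was found in 5 cells, and Timd4 in none.

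Of 8 monocyte-derived genes tested 5 were positive and 1, Fn1, passed, with a median of 0.45. The monocyte list of cell type markers went the other way, with 3 of 4 tested genes negative and a median of -1.38. F13a1, the coagulation factor XIII A chain of monocytes and macrophages, was at 4.49, 6.86, 3.07 and 4.97 per 10000 against 0.805, 2.35, 2.25 and 1.66 (1.38, adjusted p = 0.0880). Ccr2, the receptor by which monocytes leave the blood, pointed the other way, at 0.487, 1.29, 0.152 and 0.731 against 1.58, 2.19, 3.06 and 6.95 (-2.56, adjusted p = 0.0650). Neither gene overlapped between the classes, and neither passed. Without the macrophages at 10 or more of the myogenic list Ccr2 passed (-2.31, adjusted p = 0.0492). Both passed with DESeq2 (adjusted p = 0.00512 for F13a1 and 6.21e-05 for Ccr2) and after thinning (adjusted p = 0.0239 and 0.0320).

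Genes of lipid-associated macrophages, which take up debris and lipid, were positive in 10 of 12, with a median of 0.40 and no gene past the threshold. Spp1, which encodes osteopontin, was at 25.0, 10.3, 27.7 and 33.4 per 10000 against 8.52, 5.74, 5.83 and 2.83, without overlap (1.92, adjusted p = 0.0650). It was also at 10.2 to 12.1 in the cells below the macrophage threshold, and it passed without the macrophages at 10 or more of the myogenic list (2.23, adjusted p = 0.0351). The lysosomal protease Ctsd was at 33.2, 20.02, 25.0 and 36.8 against 19.4, 12.7, 8.73 and 10.6 (1.06, adjusted p = 0.0690) and passed in the same setting (1.24, adjusted p = 0.0340). Of the 20 lysosome list genes 12 were positive, with a median of 0.08. Apoe, the lipid carrier and among the most abundant transcripts, was at 241, 343, 383 and 191 against 266, 362, 302 and 278 and did not pass (-0.23, adjusted p = 0.612).

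Genes of inflammation and cell signalling had negative medians and no gene that passed with the cells of the rule. The medians were -0.69 for 12 chemokine and growth factor receptors (11 negative), -0.58 for 15 chemokine ligands (10 negative), -0.57 for 14 immediate early and stress genes (11 negative), -0.42 for 16 interferon response genes (15 negative) and -0.31 for 11 inflammatory mediators (9 negative). Of these 5 lists only the receptor list had a negative median in every library. The median log2 ratio within a library was positive for interferon response in Pax7Cre run 2 (1.81), for chemokine ligands in Pax7Cre run 2 (0.41), and for inflammatory mediators (0.49) and immediate early genes (0.18) in miR-501KO run 1. The interferon median was -1.41 without Pax7Cre run 2, -0.07 without Pax7Cre run 1 and -0.01 without miR-501KO run 1, and without miR-501KO run 2 the medians of chemokine ligands, inflammatory mediators and immediate early genes were -0.12, -0.07 and -0.29. Cx3cr1, the fractalkine receptor, was at 0.738, 0.774, 2.57 and 0.991 per 10000 against 1.60, 3.01, 2.83 and 3.11 (-1.27, adjusted p = 0.158), and passed with DESeq2 (adjusted p = 0.0457), after thinning (adjusted p = 0.0137) and with Myog allowed (adjusted p = 0.0319). Cxcl2, which attracts neutrophils, was at 25.7, 17.7, 45.0 and 10.5 against 34.9, 42.0, 27.4 and 37.2 (-0.83, adjusted p = 0.444), and the classes overlapped. The chemokine Ccl5 passed with the C1q sum required to be at least 10 (-5.81, edgeR adjusted p = 0.000428). It also passed without the highest 5% of Scrublet scores (-5.75, adjusted p = 6.41e-05), but not with DESeq2 or after thinning. Axl, a receptor for dying cells, was at 0.280, 0.361, 0.523 and 0.276 against 0.714, 0.696, 1.03 and 1.19 (-1.50, adjusted p = 0.0643), while its ligand Gas6 was at 2.94, 2.22, 2.22 and 1.97 against 1.26, 1.76, 1.10 and 1.06 (0.76, adjusted p = 0.195). Axl passed without the macrophages at 10 or more of the myogenic list (-1.81, adjusted p = 0.0417), with DESeq2 (adjusted p = 0.0380) and without Pax7Cre run 2 (adjusted p = 0.0353).

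Glycolysis genes were positive in 11 of 13 with a median of 0.30, and the list median was positive in each library (0.63, 0.23, 0.14 and 0.74) and in every alternative (0.19 to 0.69), with 0 genes called. Macrophage transcription factors had a median of -0.31 and were negative in each library (-0.14, -0.07, -0.05 and -0.40) and in every alternative (-0.37 to -0.19), also with 0 called. Cell cycle genes were positive in 10 of 12 with a median of 0.78, but 6 cells at 30 or more of the cell cycle list held much of it, 2, 1, 0 and 3 by library, and 2 of these 6 were also at 10 or more of the myogenic list. Without miR-501KO run 2 the cell cycle median was -0.07. Complement (0.02), lipid handling (-0.03), iron and haem (-0.08) and repair mediators (-0.08) had medians near 0, and the medians were 0.35 for matrix and proteases, 0.19 for efferocytosis and -0.41 for Fc receptors and ITAM adaptors. Over the 21 lists 2 genes rose (Fn1 and Cbr2) and 5 fell (Ciita, H2-DMa, H2-DMb1, H2-T23 and Fcgr4).

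**Figure D4:**
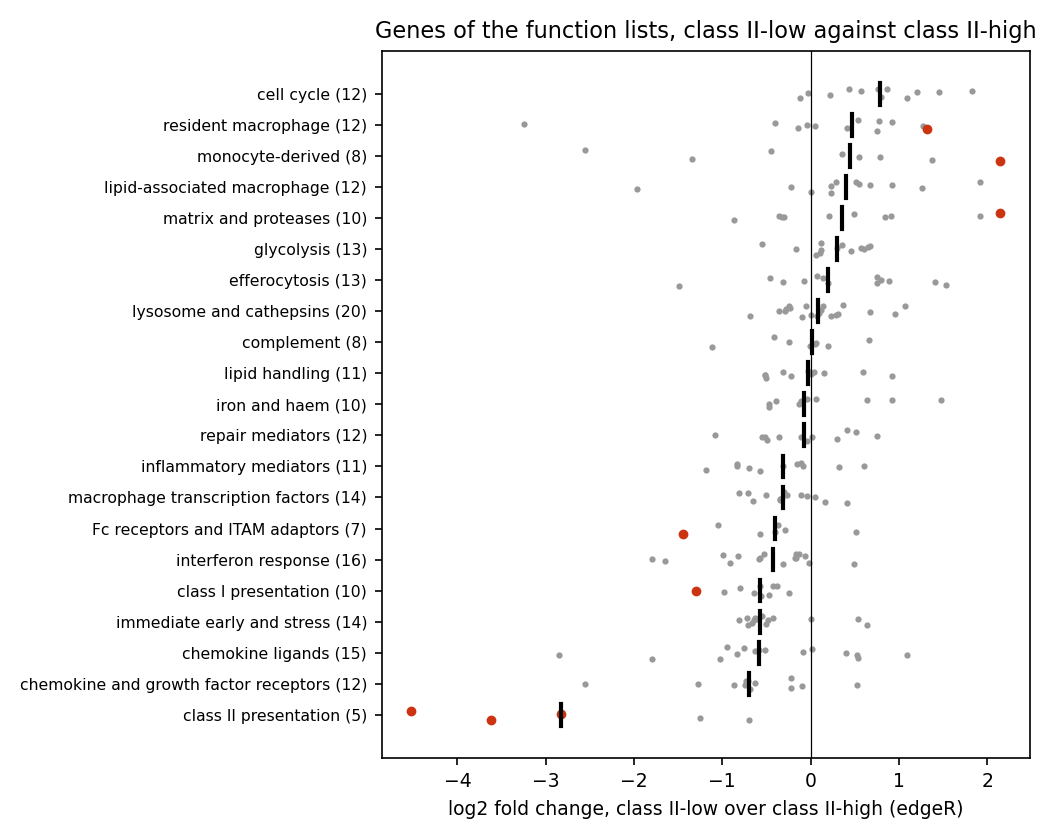
Log2 fold change of each tested gene, class II-low over class II-high macrophages (x axis), by gene list (y axis, number of tested genes outside the rule in brackets), with called genes in red and list medians as black bars. The class II presentation list lies farthest to the left with a median of -2.83, and the medians of the other lists lie between -0.69 and 0.78.

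The class II-low macrophages differed among themselves, and Mrc1 and Gpnmb were high in different cells. Mrc1 ranged from 0 to 48.2 per 10000 over the 78 cells (median 3.49), and 26 cells were at 10 or more (6, 5, 8 and 7 by library). Gpnmb, a glycoprotein of phagocytic macrophages, ranged from 0 to 66.8 (median 0.171), and 13 cells were at 10 or more (5, 0, 4 and 4). No cell was at 10 or more for both, and this also held after thinning to 5000 UMIs, with 27 cells for Mrc1 alone and 14 for Gpnmb alone. Among the class II-high macrophages 1 cell held both, 19 only Mrc1 and 9 only Gpnmb. How many cells would hold both if the genes were unrelated was not tested.

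All 13 cells at 10 or more of Gpnmb were also at 10 or more of Fabp5, a fatty acid-binding protein, which 26 cells reached in all. Only 1 of those 26 was at 10 or more of Mrc1. The Spearman correlation over the 78 cells, which share 4 libraries and differ in depth, was 0.65 for Gpnmb with Fabp5 (0.43 to 0.85 by library), 0.76 for Gpnmb with Ctsd (0.46 to 0.82) and 0.53 for Gpnmb with Spp1 (0.06 to 0.73). Mrc1 went with F13a1 (0.63, by library 0.39 to 0.91), the scavenger receptor Stab1 (0.64, 0.54 to 0.79) and Cbr2 (0.52, 0.43 to 0.70). With Fabp5 it was at -0.40 (-0.68 to -0.15), and with Gpnmb at -0.27 (-0.50 to 0.18), where Pax7Cre run 2 was positive. The summed resident and lipid-associated macrophage lists had a positive correlation, at 0.29 (0.03 to 0.54). The correlation with the UMIs of the cell was -0.04 for Mrc1 (-0.72 to 0.09 by library), 0.28 for Gpnmb (0.09 to 0.56) and 0.33 for Fabp5 (0.15 to 0.64). In miR-501KO run 1, which had the highest value for Gpnmb with Fabp5, both genes were at 0.56 with the UMIs of the cell. Fn1 went with neither, at 0.02 with Mrc1 and 0.08 with Gpnmb. The class II score itself had a correlation of 0.26 with Mrc1 and -0.05 with Gpnmb. These are descriptions of cells and carry no test.

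**Figure D5:**
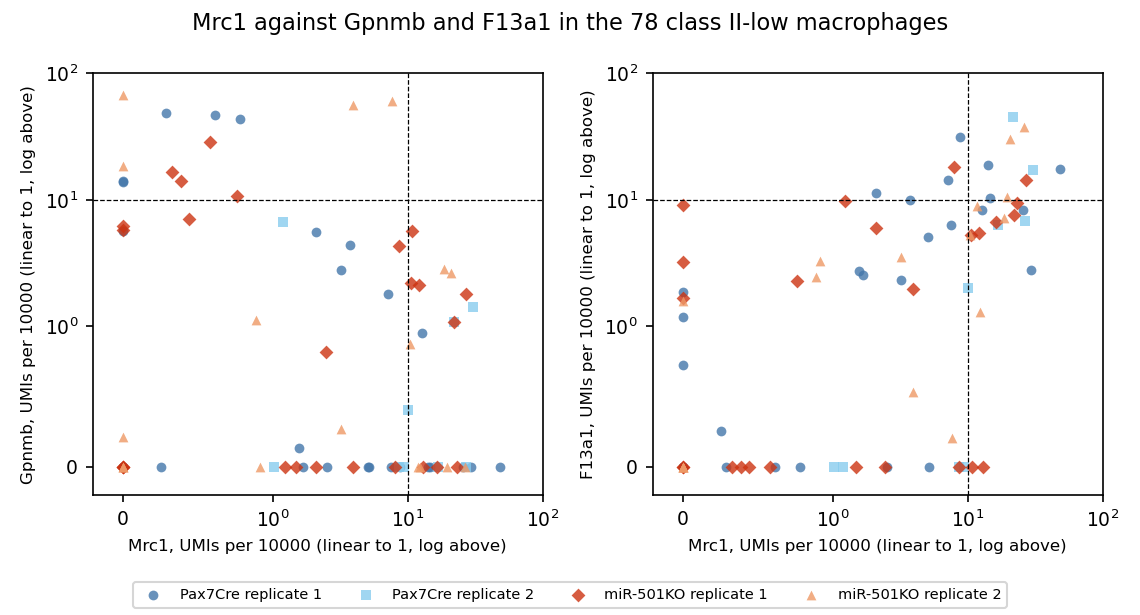
Mrc1 (x axes) against Gpnmb (left) and F13a1 (right) in each of the 78 class II-low macrophages, in UMIs per 10000 of the cell (linear to 1, log above), with the library by colour and symbol and dashed lines at 10. The upper right quadrant of the left panel is empty, and that of the right panel holds 9 cells.

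Inflammatory RNA was concentrated in part of the cells. Il1b, which encodes interleukin-1 beta, was found in 32 cells and reached 119 per 10000, with 15 cells at 10 or more (5, 1, 8 and 1 by library). Summed by library it was at 6.23, 1.86, 17.8 and 1.69, highest in miR-501KO run 1. Of the 15 cells 5 were at 10 or more of Mrc1 and 3 of Gpnmb. The summed interferon response list was at 20.2, 63.1, 23.8 and 16.4, highest in the 9 cells of Pax7Cre run 2. In both cases a single run stood apart from the other library of its genotype.

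No gene passed in the comparison of genotypes within the class II-low macrophages: 0 of 6192 genes (0%) had an adjusted p under 0.05 (edgeR quasi-likelihood test, 2 libraries against 2). Unadjusted p was under 0.05 for 74 genes, 41 higher and 33 lower in miR-501KO, and DESeq2 also called 0, with 36 at an unadjusted p under 0.05. The count rested on the libraries: without miR-501KO run 1 it was 62, without Pax7Cre run 2 it was 5 and without Pax7Cre run 1 it was 1, and in each of these fits the lone library was taken to vary like the pair of the other genotype. Cfp, the complement factor properdin, was at 2.26 and 3.15 per 10000 in Pax7Cre and 1.13 and 1.51 in miR-501KO. Slc40a1, the iron exporter ferroportin, was at 1.30 and 0.258 against 0.0653 and 0.163, with 68% of its UMIs in 1 cell. Neither passed the adjustment (adjusted p = 1 for each). Resident macrophage genes were negative in 12 of 13 tested, with a median of -0.63, and interferon response genes in 14 of 15, with a median of -1.26, with 0 called in either list and a median of 0.00 over all genes. The summed resident list was at 67.1 and 97.9 per 10000 in Pax7Cre and at 66.8 and 58.8 in miR-501KO, so the 9 cells of Pax7Cre run 2 gave the highest sum of both lists.

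Whether the genotype effect differed between class II-low and class II-high macrophages was tested as an interaction, and 0 of 7223 genes passed (0%; edgeR quasi-likelihood test, 179 at an unadjusted p under 0.05, and 0 called by DESeq2, with 41). Leaving out 1 library gave 11 to 71 calls: 11 without Pax7Cre run 1, 17 without Pax7Cre run 2, 71 without miR-501KO run 1 and 16 without miR-501KO run 2. In each of these fits 1 genotype kept a single library, whose class difference was taken to vary like that of the pair of the other genotype. These calls therefore cannot tell a genotype effect from a trait of the lone library. Gpnmb was at 9.22, 1.13, 6.23 and 11.5 per 10000 in class II-low macrophages and at 6.03, 2.36, 1.67 and 0.716 in class II-high macrophages, with an adjusted interaction p of 1. In miR-501KO the class II-low values lay above the class II-high values in both runs, and in Pax7Cre this held in run 1 only.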

How the data were processed

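The deposited values were raw UMI counts per gene and cell barcode, which the authors made from 10x Genomics 3′ libraries with Cell Ranger (6.0.2 per the file headers) on GRCm39, per the labels, with 16519 barcodes and 25827 genes. Each library is a pool of mice, so spread between single mice was not measured. The p-values of the shares and of the genotype test rest on the spread between libraries. Those of the class and interaction tests, with the library as a block, rest on how the class difference varied between libraries. Clusters came from scanpy 1.11.5 (Leiden, resolution 0.5). UMIs were summed by library and class and tested with edgeR 4.0.16 (filterByExpr, TMM, glmQLFit, glmQLFTest), with DESeq2 1.42.0 as an alternative. Adjusted p-values are Benjamini-Hochberg over all genes tested, with 0.05 as the threshold. Levels are summed UMIs of a gene per 10000 summed UMIs. Scripts were tested on simulated data.

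Named genes were those of 21 function lists and 15 cell type lists that bore on a comparison. Per test and direction, the 10 called genes outside the rule with the largest log2 fold changes that moved alike in all libraries were added. Cd52, Tmem176a, Rogdi and the genes of the other observations were named after their values were seen. Cells and lists were chosen with earlier results of these data known. Runs pair the libraries per the labels. The correlation of run differences between the genotypes was -0.216 over 6192 genes. Libraries of the same genotype did not repeat each other in the summed class II-low macrophages. The chi-square of counts between them was 5.06 (Pax7Cre) and 12.6 (miR-501KO) per degree of freedom. Libraries of different genotypes were not compared in this way. The alternatives covered cell filters, thresholds, thinning, normalization, tool, block and left-out libraries. Those on C1q, Myog and crossed runs were added after seeing the data. No coordinates are given.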

Additional observations from a re-analysis of the deposited data

How the results depend on the processing

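Called genes between the classes outside the rule (18) numbered 36 with DESeq2, 341 without a filter on low counts, 30 without macrophages at 10 or more of the myogenic list, 33 without the highest 5% of Scrublet scores, 39 with Myog allowed and 29 with class II under 10 against at least 40. Called list genes (7) numbered 14, 82, 12 and 12 in the first 4 of these settings and 11 in the last. Leaving out 1 library gave 4 to 55 and 3 to 20. H2-DMa, H2-DMb1, Ciita, Plbd1 and Dnase1l3 passed in all alternatives in which they were tested, and none of the 18 called genes outside the rule changed sign in any alternative that tested it. The medians of 8 lists (complement, lysosome, efferocytosis, lipid handling, repair mediators, iron and haem, cell cycle, matrix) took both signs over the alternatives. Genotype calls (0) were 21 without the filter and 0 to 62 with a library left out. Interaction calls (0) were 32 and 11 to 71. The replicate block on the runs left the genotype calls at 0, and crossed runs gave 0. Without the library as replicate block the classes differed in 22 genes and the interaction in 0. The difference in share of all cells, 0.200 points with or without the replicate block, stayed above 0 in every alternative (0.0475 to 0.374; by run 0.126 to 0.274 as reported), but the difference was -0.0250 in run 2 without the highest 5% of Scrublet scores and -0.00668 in run 1 with Myog allowed. The difference in share of macrophages (-0.421 points, also with the replicate block) turned positive with a minimum of 2000 UMIs (0.648), at most 10% mitochondrial UMIs (0.0347), class II under 10 (5.15), class II under 40 (0.896) or cells thinned to 5000 UMIs (2.37), and was -13.3 to 12.5 by run. The causes were not tested. With 9 class II-low macrophages in Pax7Cre run 2, genes under about 1 UMI per 10000 rest on few molecules there.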

Other observations

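Some genes did not pass between the classes as tested in the report but passed in several of the alternatives. They were chosen after their values were seen. Without macrophages at 10 or more of the myogenic list, and also without the highest 5% of Scrublet scores, class II-low macrophages were lower in the B cell and myeloid inhibitory receptor Cd72 (log2 fold changes -2.06 and -1.89, adjusted p = 0.0319 and 0.0289), the SLAM family receptor Slamf7 (-1.47 and -1.40, adjusted p = 0.0437 and 0.0273) and the anti-apoptotic Bcl2a1a (-3.71 and -3.65, adjusted p = 0.0340 and 0.0269), which has near-identical copies that share reads. They were higher in the actin-capping Capg (1.27 and 1.29, adjusted p = 0.0351 and 0.0230), the galectin Lgals1 (0.75 and 0.87, adjusted p = 0.0351 and 0.0256) and the leukotriene C4 synthase Ltc4s (1.28 and 1.33, adjusted p = 0.0351 and 0.0269). Cd72, Slamf7, Bcl2a1a and Lgals1 also passed with DESeq2. The values are from edgeR quasi-likelihood tests with Benjamini-Hochberg adjustment.

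The 58 barcodes under the class II threshold that held Myog came as 24, 7, 16 and 11 from Pax7Cre run 1, Pax7Cre run 2, miR-501KO run 1 and miR-501KO run 2. Their median macrophage score was 113 per 10000 UMIs, against 207 in the class II-low macrophages, and their median of the myogenic list was 2.11.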
